A study of Homo sapiens with 26 samples.

Results

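The genes described here are 10 members of the axis of YAP, TEAD and VGLL proteins, out of the 26485 gene symbols listed in each of 5 expression tables from cell lines of human esophageal squamous cell carcinoma (ESCC). They are the coactivators YAP1 and WWTR1 (the gene of TAZ), the transcription factors TEAD1 and TEAD4, the vestigial-like cofactors VGLL1, VGLL3 and VGLL4, and the target genes CTGF, CYR61 and AMOTL2. The tables use the older names CTGF and CYR61 for the genes now called CCN2 and CCN1. The members were chosen by name after VGLL1 had been seen to be higher with TP63 knockdown in TE6 cells, so values from that contrast are given as a description without a test. All 10 symbols were found in all 5 tables.

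The Hippo pathway is a kinase cascade, run by the MST and LATS kinases, that phosphorylates YAP and TAZ and keeps them out of the nucleus. In the nucleus YAP and TAZ bind no DNA themselves and act through the TEAD factors, which in epithelial cells drive genes for matrix signals, growth and the cytoskeleton. Vestigial-like proteins bind the same surface of TEAD as YAP does, VGLL4 mainly as an antagonist of YAP and VGLL1 and VGLL3 as alternative partners. CTGF, CYR61 and AMOTL2 are widely used reporters of YAP and TAZ activity, and AMOTL2 in turn binds and restrains YAP.

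RNA-seq was available for 26 libraries in 11 groups. KYSE180 and TE6 are ESCC lines that express BRDT, a bromodomain protein normally limited to the testis, and the study describes KYSE150 as a line without it. In KYSE180, 3 libraries with a control siRNA (siCont) were set against 3 with an siRNA against BRDT (siBRDT), and in a separate experiment 2 siCont libraries against 2 with an siRNA against TP63 (siTP63), the gene of the squamous lineage factor p63. In TE6, 2 siCont, 2 siBRDT and 2 siTP63 libraries were made, and in KYSE150 2 siCont and 2 siTP63 libraries, all 48 hours after transfection. In KYSE150, 3 libraries with electroporated BRDT plasmid (BRDT-OE) were also set against 3 with the empty vector pCDNA5/TO. The knockdowns and the overexpression were transient, so each group held a mix of transfected and untransfected cells, and the sources do not say whether replicates were separate cultures, so p-values measure the spread between these libraries, which may be technical. Both TE6 knockdowns were compared with the same 2 siCont libraries.

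Library depth ranged from 7582089 to 19372441 reads in genes, at which 3 reads, the limit that a count of 0 allows, equal 0.155 to 0.396 RPM, the usual per-million scale of a gene's reads over all gene reads of the library. BRDT had log2 fold changes of -2.75 in KYSE180 and -2.23 in TE6 with siBRDT and of 10.60 with BRDT-OE. TP63 had -1.70 in KYSE180, -4.45 in TE6 and -2.34 in KYSE150 with siTP63, the last of which was not called (limma adjusted p = 0.082). TP63 also fell with siBRDT, with log2 fold changes of -0.58 in KYSE180 and -1.15 in TE6. BRDT had 41 and 7 reads in the KYSE150 siCont libraries (3.55 and 0.557 RPM) and 9, 17 and 6 in the vector libraries. The 7 squamous markers checked were above 3 reads in every group, but their summed level was lower in each knockdown, from 7434-7620 to 5007-5134 RPM with siTP63 in KYSE180 and from 5755-5783 to 2257-2621 with siBRDT and 1144-1229 with siTP63 in TE6. In these bulk samples, fewer cells of a kind and less RNA per cell cannot be told apart. Summed leukocyte markers were at or below 2.1 RPM in every library. The sum of 6 fibroblast markers went from 33.1-35.8 to 64.7-74.7 RPM with siTP63 in KYSE180, where 1 of the 6 was above 3 reads in each group, and was at or below 111 RPM elsewhere. The sum of 3 endothelial markers went from 1.36-2.09 to 11.3-12.1 RPM with siTP63 in KYSE180. With the same siRNA it went from 4.21-5.83 to 7.85-9.76 in TE6 and from 0.796-1.73 to 5.44-11.4 in KYSE150. Of the 3 endothelial markers, 1 was above 3 reads in each of these KYSE180 and TE6 groups, and 2 in each of the KYSE150 groups. A list of 14 interferon-response genes moved with several treatments: its summed level went from 359-369 to 2105-2243 RPM with siTP63 in KYSE180, from 302-320 to 2164-2603 with siBRDT and 1460-1480 with siTP63 in TE6, from 113-124 to 188-294 with siTP63 in KYSE150, and from 314-456 down to 80-89.7 with BRDT-OE, whereas in KYSE180 it was 769-837 with siCont and 792-909 with siBRDT. The part of any of these lists in the member results was not tested.

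The regions upstream of VGLL1, CTGF and AMOTL2 are shown because these 3 members had the largest rises with siTP63 in KYSE180. The sequences are the 250 bases before the annotated start in RefSeq (GRCh38.p14), written 5′ to 3′ on the gene's strand, and capitals mark the 6-letter core of the TEAD-binding element, GGAATG, or the same element read on the other strand, CATTCC. The VGLL1 region is chrX:136531965-136532214 on the plus strand, the CTGF region is chr6:131951373-131951622 on the minus strand and the AMOTL2 region, at 1 of its 2 annotated starts, is chr3:134374448-134374697 on the minus strand.
VGLL1: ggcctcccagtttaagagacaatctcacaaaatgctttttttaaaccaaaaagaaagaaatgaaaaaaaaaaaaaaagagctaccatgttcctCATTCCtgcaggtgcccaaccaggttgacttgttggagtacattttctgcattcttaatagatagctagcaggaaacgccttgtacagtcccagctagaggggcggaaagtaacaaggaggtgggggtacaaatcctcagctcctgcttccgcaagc
CTGF: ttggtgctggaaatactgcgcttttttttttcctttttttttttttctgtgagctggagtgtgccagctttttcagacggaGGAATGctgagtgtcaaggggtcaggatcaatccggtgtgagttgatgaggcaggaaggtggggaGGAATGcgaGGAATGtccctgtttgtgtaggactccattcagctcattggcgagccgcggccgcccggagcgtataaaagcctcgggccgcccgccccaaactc
AMOTL2: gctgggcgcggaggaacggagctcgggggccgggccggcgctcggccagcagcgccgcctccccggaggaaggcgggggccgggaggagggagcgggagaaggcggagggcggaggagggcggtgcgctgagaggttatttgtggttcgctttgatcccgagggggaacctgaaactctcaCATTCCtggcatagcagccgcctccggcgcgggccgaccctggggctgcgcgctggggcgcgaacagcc

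CTGF held 3 matches, which begin 169, 104 and 95 bases before the start. VGLL1 held 1 match 157 bases and AMOTL2 1 match 69 bases before the start. The window at the other annotated start of AMOTL2, chr3:134375418-134375667, is not shown and held no match. RefSeq promoters were given for 7 of the 10 members and 13 start sites, and YAP1 was the only other one with a match, 162 bases before its start, while none of the windows of WWTR1, VGLL3 and VGLL4 held the letters. Of all 35116 promoters searched the same way on both strands, 4175 (11.9%) held at least 1 match and 28 (0.0797%) held 3 or more. A match describes the letters only and is not a measured binding site.

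In control cells the members with the highest level per length differed between lines, and in KYSE180 also between experiments. In RPKM, which is RPM divided by the length of the longest transcript in kilobases, CYR61 was the highest member in KYSE150, with 191 ± 0.548 (SD, n = 2) in siCont and 495 ± 14.7 (n = 3) in vector cells. The next members there were TEAD4 at 64.2 ± 9.31 in siCont and AMOTL2 at 58.5 ± 7.93 in vector cells. In TE6 the same measure of CYR61 was 2.97 ± 0.0595 (n = 2), and TEAD4 led with 41.8 ± 0.165, above AMOTL2 at 13.1 ± 0.152 and WWTR1 at 11.4 ± 0.30. YAP1 at 10.6 ± 1.68 could not be separated from WWTR1 there, since their libraries overlapped.

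The order was not a fixed property of a line. In the siCont cells of the KYSE180 BRDT experiment YAP1 (35.7 ± 0.996 RPKM, n = 3) and WWTR1 (34.6 ± 2.65) led and overlapped, followed by CYR61, AMOTL2 and TEAD4 between 24.5 and 26.1, which overlapped in turn. In the siCont cells of the KYSE180 TP63 experiment TEAD4 led with 35.5 ± 0.0239 (n = 2) and YAP1 was at 8.63 ± 0.741. TEAD1 was likewise at 77.0 RPM in the former (range 69-88.1) and 9.77 in the latter (9.54-10.0). At the lower end VGLL3 and VGLL1 were the lowest members of every control group except TE6, where CTGF at 0.149 ± 0.118 RPKM lay between them. In KYSE150 YAP1 was at 9.83 ± 2.46 RPKM in siCont and 36.4 ± 5.19 in vector cells, and TEAD4 at 64.2 and 46.2. In both lines the controls of the TP63 experiment were thus lower for YAP1 (longest transcript 5401 bases) and higher for TEAD4 (1710 bases). The part of transcript length in this was not tested. RPM and RPKM were taken from recovered reads over library totals. Levels were not tested against each other, and differences between lines cannot be told apart from those between experiments.

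**Figure D1:**
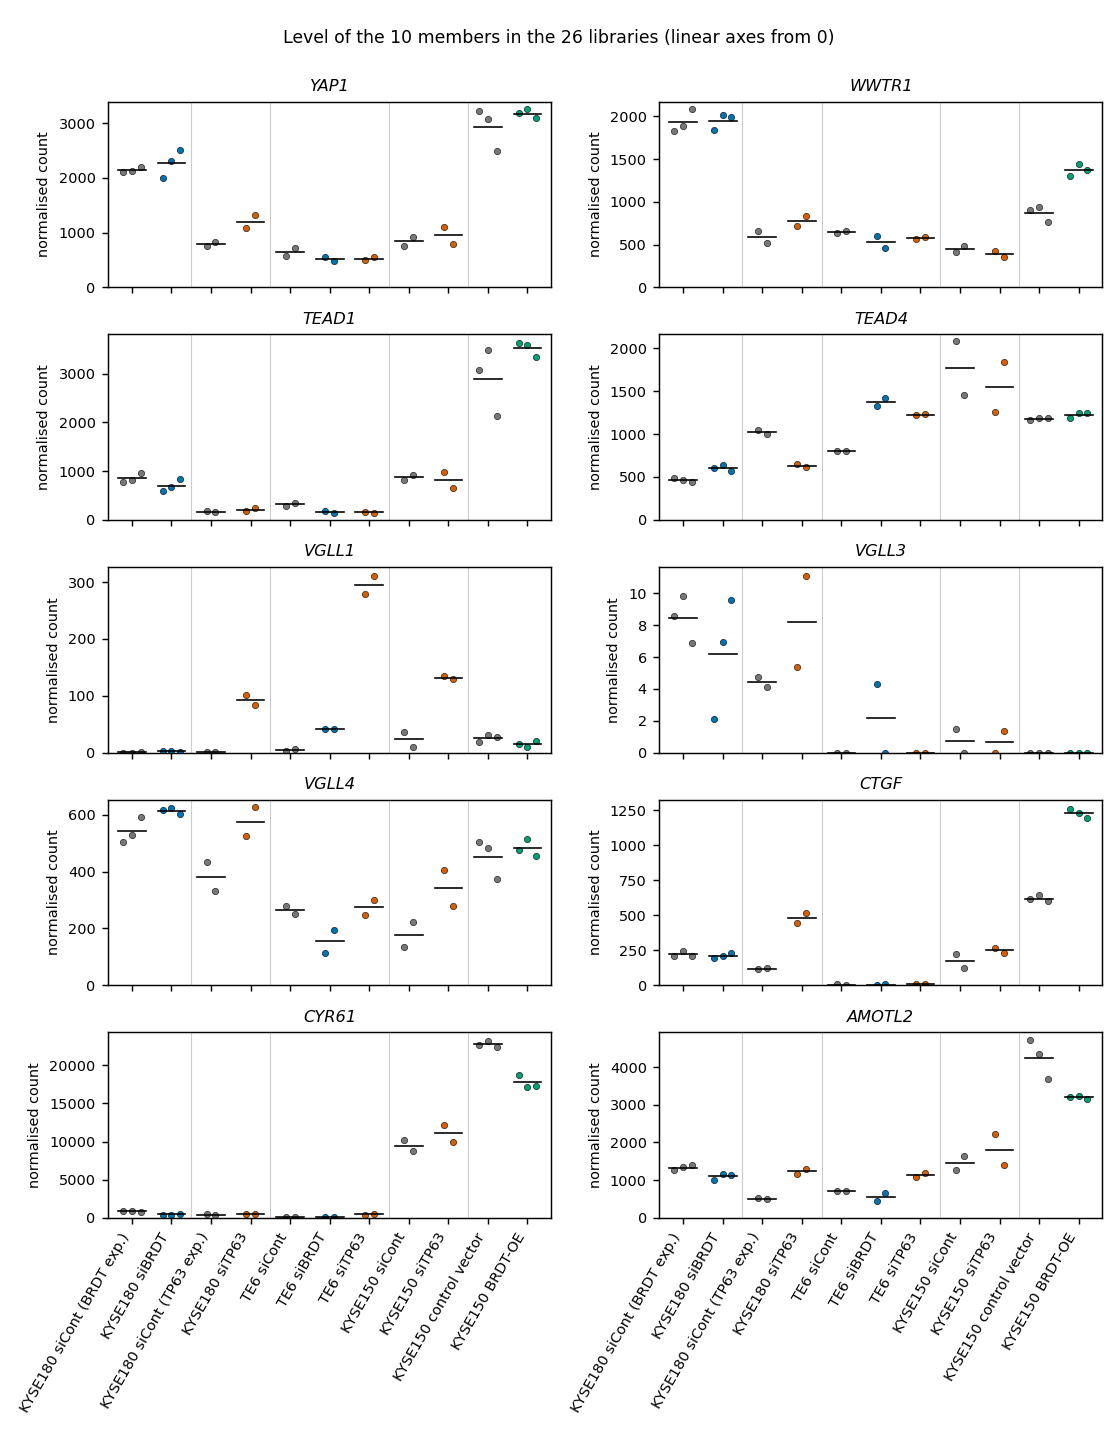
Normalised count (linear axes from 0) of each of the 10 members in each of the 26 libraries, 1 point a library and a line at the group mean, with grey lines between the 5 separately normalised experiments; heights are to be compared only within an experiment. VGLL1 is near 0 in the KYSE180 and TE6 controls and at 83.4 to 311 in the 4 siTP63 libraries of these lines, and CTGF is at 1195 to 1261 in the 3 BRDT-OE libraries against 599 to 641 in their controls.

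Differences were tested with limma on log2(normalised count + 1) over all genes with a mean value of at least 10, and calls needed both an adjusted p (Benjamini-Hochberg) under 0.05 and a change of 0.5 or more on the log2 scale. With siTP63 in KYSE180, 5 of 8 members were called, 4 up and 1 down, against 49.3% of the 13924 genes tested. VGLL1 is left out of these 8, since it passed the filter there only through its siTP63 libraries and so had to differ. With siBRDT, 1 of 8 was called in KYSE180 (background 30.3%) and, leaving out VGLL1, 3 of 7 in TE6 (33.7%), and with BRDT-OE 2 of 9 (26.5%). Leaving out VGLL1, the libraries of the groups did not overlap for 7 of the 8 members tested with siTP63 in KYSE180 (80.2% of all genes tested), 4 of 8 with siBRDT in KYSE180 (62.8%), 6 of 7 with siBRDT (71.9%) and 6 of 7 with siTP63 (80.5%) in TE6, 2 of 8 with siTP63 in KYSE150 (48.9%) and 5 of 8 with BRDT-OE (60.2%).

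In KYSE150 no gene was called with siTP63 in the limma fit, 0% of 12335, and edgeR also called none, whereas DESeq2 on the recovered reads called 462 genes and among the members VGLL1. At an unadjusted p under 0.05 the limma fit held 2194 genes (17.8%) and 2 of the 9 members, VGLL1 and VGLL4. With siTP63 in TE6, 38.9% of 13333 genes passed the same limits, and so did 5 of the 8 members with a sufficient level, which is part of what the members were chosen on and is not read further.

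The scaling of the libraries bears on all of these counts. The direction of the calls over all genes was 3292 up and 3577 down with siTP63 in KYSE180 under the deposited scaling, 4524 up and 2631 down after scaling to equal upper quartiles, which shifted the median gene by 0.19, and 6728 up and 1460 down after scaling to equal totals, which shifted it by 0.52. The share of downward calls went from 60.3% to 74% and 77.2% with BRDT-OE under those 2 scalings, and under equal totals from 52.1% to 40.3% in KYSE180 siBRDT and from 53.8% to 66.5% in TE6 siBRDT. The KYSE180 siTP63 values below are therefore relative to the median gene.

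**Figure D2:**
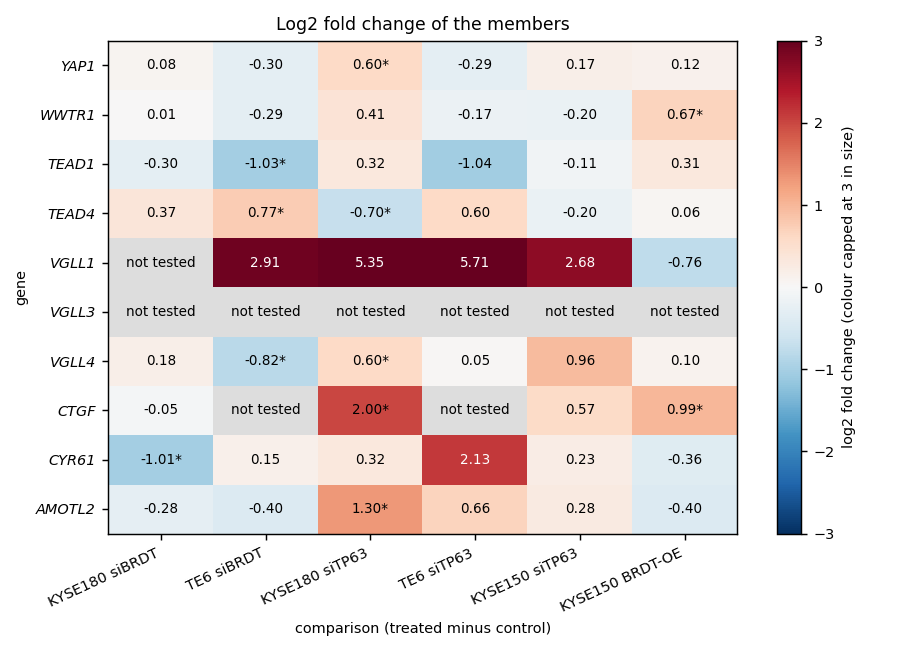
Log2 fold change (treated minus control) of each member in the 6 comparisons, as numbers in the cells and as colour capped at 3; an asterisk marks a call (adjusted p under 0.05 and 0.5 or more in size), left out for TE6 siTP63 and for VGLL1 in TE6 siBRDT and KYSE180 siTP63. VGLL1 holds the largest values, 2.91 to 5.71 in 3 columns and 2.68 in KYSE150 siTP63, and VGLL3 could be tested in none.

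The coactivators moved little in most contrasts. YAP1 (chr11:102110447-102233424, plus strand; positions are those of GENCODE 44 on GRCh38) had normalised counts of 758 and 819 with siCont and 1088 and 1314 with siTP63 in KYSE180. Both siTP63 libraries lay above both controls, and YAP1 rose by a log2 fold change of 0.60 ± 0.14 (SE, limma adjusted p = 0.00095). The call was lost without siTP63 replicate 2 (0.46, limma adjusted p = 0.063) and, on size, in the fit adjusted for transcript length and GC (0.35). YAP1 was not called elsewhere: its log2 fold change was 0.081 with siBRDT in KYSE180, -0.30 with siBRDT in TE6 (limma adjusted p = 0.092), 0.17 with siTP63 in KYSE150 and 0.12 with BRDT-OE. With siTP63 in TE6 it was lower, at 501 and 549 normalised counts against 575 and 716 (log2 fold change -0.29, as a description).

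WWTR1 (chr3:149517235-149736714, minus strand) rose with BRDT-OE. Its normalised counts were 904, 940 and 759 in the vector libraries and 1298, 1442 and 1379 in the BRDT-OE libraries, without overlap. The log2 fold change was 0.67 ± 0.092 (SE, limma adjusted p = 0.00022) and stayed between 0.54 and 0.73 under all alternatives run. With siTP63 in KYSE180 WWTR1 went from 656 and 520 to 722 and 833 normalised counts, a log2 fold change of 0.41 (limma adjusted p = 0.024) under the size limit, which equal upper quartiles (0.60), equal totals (0.93) and leaving out siCont replicate 1 (0.58) or siTP63 replicate 1 (0.51) moved past it. Exons of WWTR1 overlap the antisense gene WWTR1-AS1, and without a stated strand setting their reads cannot be told apart.

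Of the DNA-binding partners, TEAD1 and TEAD4 moved in opposite directions in TE6. TEAD1 (chr11:12674421-12944737, plus strand) had normalised counts of 290 and 346 with siCont, 178 and 134 with siBRDT and 158 and 149 with siTP63. All 4 knockdown libraries lay below the controls, and with siBRDT TEAD1 fell by 1.03 ± 0.17 on the log2 scale (SE, limma adjusted p = 0.00042). Over the alternatives this log2 fold change ranged from -1.24 to -0.62. The TEAD1 log2 fold change with siTP63 was -1.04, against the same controls. In KYSE180 TEAD1 went from 768, 828 and 969 to 585, 681 and 831 normalised counts with siBRDT, groups that overlapped, with a log2 fold change of -0.30 (limma adjusted p = 0.033) under the size limit. With siTP63 in KYSE180 it went from 173 and 158 to 173 and 247 normalised counts, with a log2 fold change of 0.32 (limma adjusted p = 0.15) that became a call under equal upper quartiles (0.51, limma adjusted p = 0.022) and equal totals (0.84, limma adjusted p = 0.00036) and was -0.022 in the fit adjusted for length and GC.

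TEAD4 (chr12:2959330-3040676, plus strand) had normalised counts of 807 and 806 with siCont, 1323 and 1425 with siBRDT and 1219 and 1230 with siTP63 in TE6. It rose by 0.77 ± 0.10 with siBRDT (SE, limma adjusted p = 8.7e-05), a value that was 0.30, under the size limit, in the fit adjusted for length and GC. Its log2 fold change with siTP63 in TE6 was 0.60. In KYSE180 TEAD4 went from 488, 465 and 444 to 605, 634 and 568 normalised counts with siBRDT, with no overlap and a log2 fold change of 0.37 (limma adjusted p = 0.00075), under the size limit.

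With siTP63 in KYSE180 the direction of TEAD4 was the other one. Normalised counts went from 1052 and 1006 to 647 and 617, a fall by 0.70 ± 0.14 on the log2 scale (SE, limma adjusted p = 0.00014). This call rested on the scaling, since under equal totals the value was -0.18 (limma adjusted p = 0.29), and in RPM TEAD4 went from 60.8 and 60.7 to 53.6 and 53.8. It was also under the size limit in the fit adjusted for length and GC (-0.30). In KYSE150 the TEAD4 groups overlapped with siTP63 (2079 and 1458 against 1257 and 1835 normalised counts), and with BRDT-OE its log2 fold change was 0.055, with the sign turned to -0.043 and -0.069 by equal upper quartiles and equal totals.

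The vestigial-like cofactors held the widest range of the members. VGLL1 (chrX:136532215-136556807, plus strand) had 4 and 7 reads in the TE6 siCont libraries, 39 and 34 with siBRDT and 422 and 210 with siTP63. In normalised counts these were 3.52 and 6.03, then 42.1 and 40.6, then 280 and 311, so that the siBRDT libraries stood between the controls and the siTP63 libraries. The log2 fold changes were 2.91 with siBRDT and 5.71 with siTP63, both given as a description because the members were chosen on these controls. TP63 in the same libraries was at 2596 and 2785 normalised counts with siCont, 1282 and 1147 with siBRDT and 133 and 112 with siTP63.

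In KYSE180, which the choice of members did not use, VGLL1 had 1 read in each siCont library of the TP63 experiment and 132 and 105 reads with siTP63. Scaled to library size this was a ratio of 107 with an exact 95% interval of 29.2 to 885, which covers counting error only. The fitted log2 fold change was 5.35, given as a description without a test, and ranged from 5.17 to 6.22 over the alternatives. With siBRDT in KYSE180 VGLL1 had 0, 0 and 1 reads with siCont and 2, 2 and 2 with siBRDT, a ratio of 6.83 with an interval of 0.828 to 314, so the ratio was not separated from 1 by counting error. It was too low for the main fit, and without the filter on low values limma called it (log2 fold change 1.28, adjusted p = 0.041). The interferon-response list rose in the contrasts with siTP63 in KYSE180 and with both siRNAs in TE6, in which VGLL1 was higher, and was about level in KYSE180 siBRDT, and its part in the VGLL1 values was not tested.

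In KYSE150 VGLL1 had reads in control cells too. Its normalised counts were 35.6 and 10.6 with siCont and 134 and 129 with siTP63, again without overlap between groups. The log2 fold change was 2.68 ± 0.57 (SE) with a limma adjusted p of 0.13 (unadjusted 0.0036), and it ranged from 1.85 to 3.51 over the alternatives. DESeq2, which called 462 genes there, called it (2.55, adjusted p = 0.00037), and edgeR did not. Limma called it with length and GC adjustment (2.62, limma adjusted p = 0.039, 766 genes called). It was also called with a replicate block (2.68, limma adjusted p = 0.00051, 137 genes called). Leaving out siTP63 replicate 1 or 2 gave 2.66 and 2.71. The values 3.51 and 1.85 came from leaving out siCont replicate 1 and siCont replicate 2, which left 1 control library. With BRDT-OE VGLL1 was at 18.1, 30.2 and 27.4 normalised counts in vector cells and 15.5, 9.30 and 19.7 in BRDT-OE cells, groups that overlapped, with a log2 fold change of -0.76 (limma adjusted p = 0.077). It was called under equal totals (-0.87) and without BRDT-OE replicate 3 (-0.98), each at a limma adjusted p of 0.049.

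**Figure D3:**
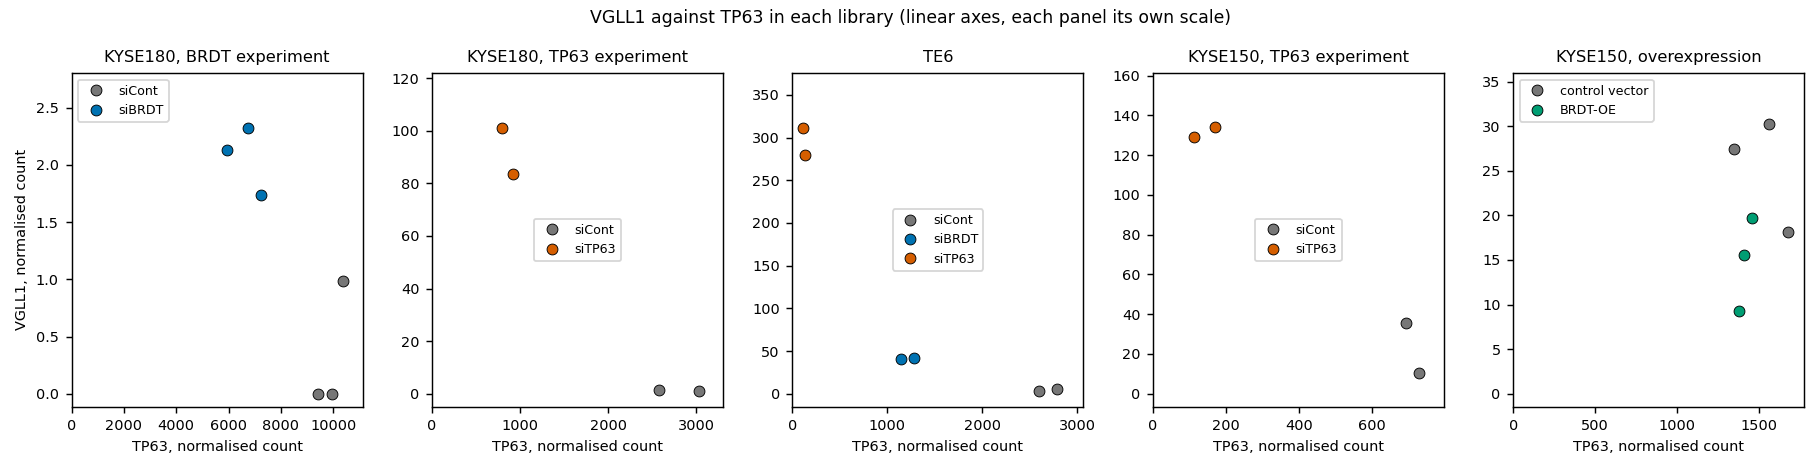
Normalised count of VGLL1 (y axis) against that of TP63 (x axis) in each library, 1 panel for each of the 5 experiments with linear axes of its own. In each knockdown panel the treated libraries have less TP63 and more VGLL1 than their controls, with VGLL1 at most 2.32 in KYSE180 siBRDT and at 280 and 311 in TE6 siTP63, and in the overexpression panel the groups overlap on both axes.

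VGLL4 (chr3:11556069-11771350, minus strand) rose with siTP63 in KYSE180 and fell with siBRDT in TE6. In KYSE180 with siTP63 its normalised counts went from 434 and 332 to 525 and 628, a rise by 0.60 ± 0.16 (SE, limma adjusted p = 0.0026) that was lost without siTP63 replicate 2 (0.47, limma adjusted p = 0.085) and, on size, without siCont replicate 2 (0.40). In TE6 with siBRDT it went from 278 and 252 to 114 and 196, a fall by 0.82 ± 0.22 (SE, limma adjusted p = 0.0081). The adjusted p in TE6 was 0.087 without siCont replicate 1 and 0.057 without siCont replicate 2 in limma, and without siBRDT replicate 1, the lower library, the log2 fold change was -0.43. With siBRDT in KYSE180 VGLL4 had a log2 fold change of 0.18 (limma adjusted p = 0.054). With siTP63 in TE6 VGLL4 stood at 247 and 302 normalised counts, around its controls, and in KYSE150 at 407 and 279 against 135 and 221 (log2 fold change 0.96, limma adjusted p = 0.23).

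Exons of VGLL4 overlap those of ATG7, a gene of autophagy on the opposite strand, so that part of its reads may belong to ATG7. VGLL3 (chr3:86876388-86991149, minus strand) was too low for a test in every comparison. It had 7, 13 and 7 reads with siCont and 2, 6 and 11 with siBRDT in KYSE180, 3 and 4 reads with siCont and 7 and 14 with siTP63 in the other KYSE180 experiment, 4 reads in 1 of the 6 TE6 libraries, 1 read in 2 of the 4 KYSE150 knockdown libraries and 0 reads in all 6 overexpression libraries. The ratio scaled to library size with siTP63 in KYSE180 was 2.7, with a counting interval of 1.1 to 7.51.

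Among the target genes, CTGF, a matricellular growth factor, rose in 2 separate experiments. In KYSE180 with siTP63 CTGF (chr6:131948176-131951372, minus strand) went from 115 and 121 to 442 and 513 normalised counts, an increase by 2.0 ± 0.17 on the log2 scale (SE, limma adjusted p = 3.8e-10), with a range of 1.90 to 2.53 over the alternatives. In KYSE150 with BRDT-OE it went from 612, 641 and 599 to 1261, 1229 and 1195, an increase by 0.99 ± 0.071 (SE, limma adjusted p = 5.7e-06), with a range of 0.87 to 1.10. Neither pair of groups overlapped.

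Elsewhere CTGF did not pass the test or had too few reads. With siBRDT in KYSE180 it was at 205, 242 and 210 normalised counts in the controls and 192, 208 and 232 after knockdown, groups that overlapped, with a log2 fold change of -0.054 (limma adjusted p = 0.69). In TE6 it had 7 and 2 reads with siCont, 2 and 5 with siBRDT and 12 and 8 with siTP63, for which the ratio scaled to library size was 2.31 with a counting interval of 1.01 to 5.77. In KYSE150 with siTP63 it went from 223 and 125 to 266 and 230 normalised counts (log2 fold change 0.57, limma adjusted p = 0.42). CTGF shares exon positions with the antisense gene LINC01013. Exons of YAP1 also overlap non-coding genes on the opposite strand, and exons of AMOTL2 the pseudogene RPL39P5 on the same strand. LINC01013 is among the symbols listed, and the genes that overlap YAP1 and AMOTL2 are not.

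CYR61, the sister gene of CTGF, fell with siBRDT in KYSE180. CYR61 (chr1:85580761-85584589, plus strand) had normalised counts of 929, 931 and 816 with siCont and 432, 420 and 476 with siBRDT, far apart. The log2 fold change was -1.01 ± 0.080 (SE, limma adjusted p = 7.8e-08) and lay between -1.07 and -0.92 under every alternative run. With the same siRNA in TE6 CYR61 was at 102 and 104 normalised counts in the controls and 102 and 128 after knockdown (log2 fold change 0.15, limma adjusted p = 0.48).

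With siTP63 CYR61 was not called in KYSE180 or KYSE150 under the deposited scaling. In TE6 CYR61 was at 431 and 481 normalised counts with siTP63 against 102 and 104, a log2 fold change of 2.13 given as a description. In KYSE180 it was at 511 and 541 against 481 and 370 (0.32, limma adjusted p = 0.084), which equal upper quartiles (0.51, limma adjusted p = 0.0061), equal totals (0.84) and leaving out siCont replicate 1 (0.51, limma adjusted p = 0.0058) turned into a call. In KYSE150, where CYR61 is the most abundant member, it went from 10136 and 8700 to 12230 and 9947 with siTP63 (0.23, limma adjusted p = 0.69). With BRDT-OE it went from 22700, 23153 and 22414 to 18738, 17177 and 17339 normalised counts, with no overlap and a log2 fold change of -0.36 (limma adjusted p = 0.0022) under the size limit, while CTGF rose in the same libraries.

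AMOTL2 (chr3:134355347-134375479, minus strand), an angiomotin family scaffold, rose with siTP63 in KYSE180. Its normalised counts went from 516 and 487 to 1173 and 1305, an increase by 1.30 ± 0.14 on the log2 scale (SE, limma adjusted p = 2.9e-08), with a range of 1.18 to 1.83 over the alternatives. In TE6 AMOTL2 was at 714 and 721 with siCont, 453 and 647 with siBRDT and 1091 and 1181 with siTP63, that is below the controls with 1 siRNA and above them with the other. The log2 fold change with siTP63 was 0.66, as a description, and with siBRDT -0.40 (limma adjusted p = 0.040) under the size limit. The siBRDT value was -0.15 without siBRDT replicate 1, and it became a call without siBRDT replicate 2 (-0.66, limma adjusted p = 3.4e-07) and under equal totals (-0.51, limma adjusted p = 0.013).

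With BRDT-OE AMOTL2 went from 4710, 4347 and 3677 to 3212, 3228 and 3148 normalised counts, without overlap, and its log2 fold change of -0.40 (limma adjusted p = 0.0038) was under the size limit, which equal totals (-0.53) and leaving out vector replicate 3 (-0.50) moved past it. In KYSE180 with siBRDT it went from 1267, 1344 and 1390 to 993, 1157 and 1141, also without overlap, with a log2 fold change of -0.28 (limma adjusted p = 0.0039). In KYSE150 with siTP63 the groups overlapped, at 1276 and 1654 against 2214 and 1400. The 3 reporters did not move as 1 group: with siBRDT in KYSE180 CYR61 fell and CTGF did not pass the test, and with BRDT-OE CTGF rose while CYR61 and AMOTL2 had negative values.

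Whether an siRNA acted differently in 2 lines was tested as the difference of their log2 fold changes. For siBRDT, 7 members could be tested in KYSE180 and TE6, and 2 differed, against 25.1% of 12612 genes. The CYR61 log2 fold change differed between KYSE180 and TE6 by -1.16 ± 0.17 (SE, limma adjusted p = 0.00013), with a range of -1.32 to -0.97 over all alternatives run. The VGLL4 log2 fold change was higher in KYSE180 by 1.00 ± 0.30 (SE, limma adjusted p = 0.021), a call that was lost without TE6 siCont replicate 1 (limma adjusted p = 0.072), siCont replicate 2 (0.051) or siBRDT replicate 1 (difference 0.61, limma adjusted p = 0.16) and with a replicate block (0.062). TEAD1 (difference 0.74, limma adjusted p = 0.060) and TEAD4 (-0.40, limma adjusted p = 0.11) did not pass, although both did in a fit with a variance for each experiment (limma adjusted p = 0.030 and 0.017). TEAD1 also passed under equal totals (0.92, limma adjusted p = 0.043) and without KYSE180 siBRDT replicate 1 (0.86, 0.039) or TE6 siBRDT replicate 1 (0.94, 0.046). For YAP1, WWTR1 and AMOTL2 the differences were 0.38, 0.31 and 0.12.

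For siTP63, the log2 fold changes of 8 members besides VGLL1 were compared between KYSE180 and KYSE150, and 1 differed, against 10.3% of 11891 genes. The AMOTL2 log2 fold change was higher in KYSE180 by 1.02 ± 0.32 (SE, limma adjusted p = 0.040), which was lost on leaving out either KYSE180 siTP63 library, either KYSE150 siCont library or KYSE150 siTP63 replicate 2 (limma adjusted p = 0.058 to 0.45) and with a replicate block (0.18). The differences for CTGF (1.44 ± 0.64, limma adjusted p = 0.15) and WWTR1 (0.61 ± 0.30, limma adjusted p = 0.18) did not pass. With 1 variance for all experiments, as first planned, both passed (limma adjusted p = 0.026 and 0.024), as they did in edgeR (adjusted p = 0.00036 and 0.012). VGLL1, whose difference was 2.66, is given without a test, since its KYSE180 level passed the filter only through the siTP63 libraries. TEAD4 passed without KYSE150 siTP63 replicate 1 (-0.78, limma adjusted p = 0.028) and was -0.51 otherwise (0.16).

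**Figure D4:**
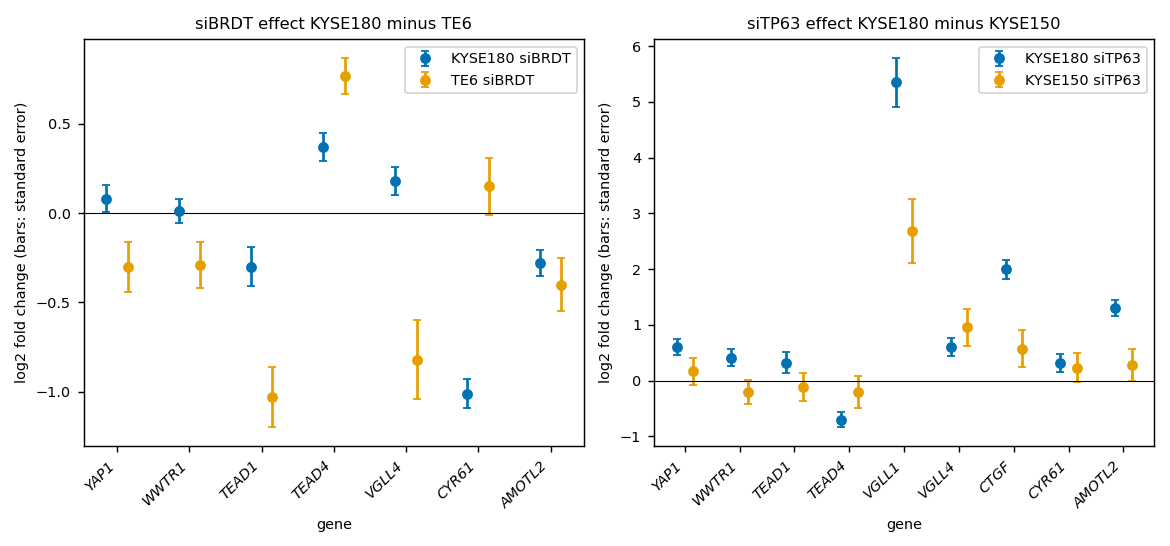
Log2 fold change of the members (y axis, bars are standard errors of the fit within a table) with siBRDT in KYSE180 and TE6 (left) and with siTP63 in KYSE180 and KYSE150 (right). On the left CYR61 (-1.01 and 0.15) and VGLL4 (0.18 and -0.82) lie on opposite sides of 0, and on the right AMOTL2 (1.30 and 0.28) is the one member called different.

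The wider pathway was read from a list of 21 Hippo regulators, which are upstream kinases, scaffolds and the other TEAD genes. With siBRDT 2 of the 20 tested rose and 6 fell in KYSE180, where 14.5% of all genes rose and 15.8% fell. The scaffold AMOT (465 ± 56.4 to 211 ± 28.7 normalised counts, SD, n = 3 and 3) and the MST2 kinase gene STK3 (638 ± 33.7 to 318 ± 13.4) fell, with log2 fold changes of -1.14 and -1.0 (limma adjusted p = 6.5e-07 and 6.8e-08). WWC1, the gene of the scaffold KIBRA, and the kinase gene TAOK2 rose by 0.71 and 0.63 (limma adjusted p = 8.9e-07 and 3.8e-06). In TE6 with siBRDT 0 of 20 rose and 6 fell (15.6% and 18.1% of all genes), led by FRMD6, a FERM-domain activator of the cascade, and the LATS cofactor gene MOB1A, with log2 fold changes of -1.31 and -1.16 (limma adjusted p = 1.7e-05 and 4.3e-05).

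With siTP63 in KYSE180 8 of 20 Hippo regulators rose and 1 fell, where 23.6% of all genes rose and 25.7% fell. AMOT rose from 403 ± 38.4 to 1278 ± 137 normalised counts (n = 2 and 2), by 1.66 on the log2 scale (limma adjusted p = 9.6e-10), the opposite direction to siBRDT in the same line but in another experiment. The kinase gene TAOK3 rose by 1.2 and TEAD2 fell by 0.65 (limma adjusted p = 3.5e-07 and 0.00042). In TE6 with siTP63 4 passed the limits upward and 4 downward (18.3% and 20.6% of all genes), with AMOT at 1.59, TEAD3 at 1.40, FRMD6 at -1.62 and MOB1B at -1.37. In KYSE150 none of 20 was called with siTP63, and with BRDT-OE 0 of 19 rose and 2 fell (10.5% and 16.0% of all genes), namely TEAD3 (-0.79) and TEAD2 (-0.78, limma adjusted p = 3.8e-05 and 5.5e-05). The list medians ran from -0.32 with siTP63 in TE6 to 0.26 with BRDT-OE.

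A list of 19 further YAP and TAZ target genes, of which PTPN14 is also among the regulators, moved in both directions in most contrasts. With siTP63 in KYSE180 10 of 19 rose and 2 fell (23.6% and 25.7% of all genes), with a median of 0.53 against 0.00064 for all genes. The growth factor-binding protein gene IGFBP3 rose from 48.7 ± 2.21 to 329 ± 1.02 normalised counts and the ectonucleotidase gene NT5E from 45.4 ± 4.71 to 259 ± 39.6 (SD, n = 2 and 2), by 2.73 and 2.48 on the log2 scale (limma adjusted p = 1.8e-11 and 3.4e-10). FJX1 and the stress gene GADD45A fell, with -1.64 and -0.91 (limma adjusted p = 3e-09 and 9e-05). With siTP63 in TE6 4 of 18 passed the limits upward and 7 downward (18.3% and 20.6% of all genes), with IGFBP3 at 2.55, CCDC80 at 1.77, ASAP1 at -1.03 and MYOF at -1.0, and in KYSE150 none of 17 was called.

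With siBRDT 3 of 19 target genes rose and 5 fell in KYSE180 (14.5% and 15.8% of all genes), with a median of -0.24. NT5E fell from 744 ± 19.3 to 244 ± 26.2 normalised counts and the receptor tyrosine kinase gene AXL from 531 ± 20.2 to 199 ± 16.0 (SD, n = 3 and 3), with log2 fold changes of -1.61 and -1.41 (limma adjusted p = 1.7e-09 and 7e-09), while FJX1 and TGFB2 rose by 0.93 and 0.84 (limma adjusted p = 2.7e-07 and 0.00083). In TE6 1 of 18 rose and 3 fell (15.6% and 18.1% of all genes), among them MYOF (-1.16) and CRIM1 (-0.72, limma adjusted p = 0.00011 and 0.00069). With BRDT-OE 4 of 17 rose and 3 fell (10.5% and 16.0% of all genes): F3, the gene of tissue factor, rose from 9435 ± 906 to 20743 ± 576 normalised counts, by 1.14 (limma adjusted p = 6.3e-06), and FJX1 by 0.72 (limma adjusted p = 6.3e-05), and GADD45A and ARHGEF17 fell, with -1.07 and -0.99 (limma adjusted p = 4.8e-06 and 0.011).

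**Figure D5:**
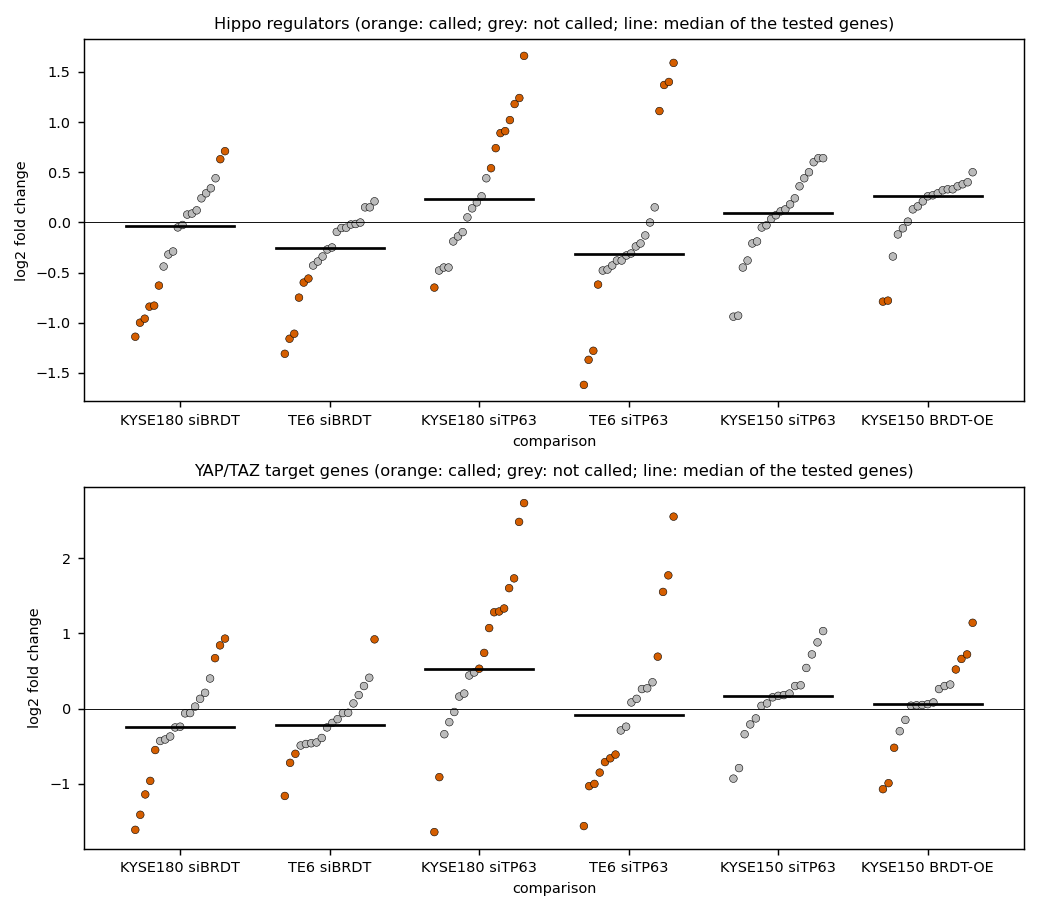
Log2 fold change (y axis) of each tested gene of the Hippo regulators (top) and of the YAP and TAZ target genes (bottom) in the 6 comparisons (x axis), sorted by value within a comparison; orange points are called, grey points are not, and the black line is the median. The target genes of KYSE180 siTP63 have the highest median, 0.53, with 10 called above and 2 below 0. All called Hippo regulators lie below 0 in TE6 siBRDT (6) and BRDT-OE (2).

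The genes whose pattern was most like that of VGLL1 were found by the Pearson correlation of deviations from the control mean of each experiment, on log2(normalised count + 1), over the 14 treated libraries, which fall into 6 groups and partly share controls. Among 13930 genes the closest were JDP2 (r = 0.9845) and C19orf66 (0.9728). JDP2 stood at a mean deviation of 1.74 with siBRDT and 2.97 with siTP63 in TE6. In KYSE180 it stood at 0.042 with siBRDT and 2.58 with siTP63, and in KYSE150 at 0.96 with siTP63 and -1.48 with BRDT-OE. The 14 libraries include those of siTP63 in TE6, which the choice of members used. The genes most like CYR61 were MFGE8 (0.9634), EN1 (0.9629) and FAM149A (0.953). Among the members themselves, AMOTL2 (0.798) and CYR61 (0.743) were most like VGLL1, and WWTR1 (-0.468) least.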

How the data were processed

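The deposited values are a normalised signal, namely gene counts that the authors divided by a size factor per library, separately in each of 5 tables. Per the study's methods and the submitters' processing notes, reads were mapped to hg38 with STAR 2.6.0 and counted with HTSeq 0.11.2, and counts were handled with DESeq2 1.24.0. The annotation and the counting options, including strand, are not given in the sources used here, and the kit does not mark strand, so reads of genes that overlap cannot be told apart. Columns were matched to samples by cell line, condition and replicate number. Values were whole multiples of 1 read (100% within a tolerance of 0.001), so reads were recovered. Intervals and floors on reads cover counting error only, since there are no molecular identifiers.

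limma 3.58.1 (R 4.3.3, trend) was run on log2(value + 1) in each table, with 1 fit for the 3 TE6 groups, for genes with a mean value of at least 10. This scale understates changes of low genes. Differences between lines were contrasts in 1 fit over 26 libraries. That of siTP63 used a variance for each experiment, a change from the first plan made after 1 common variance gave false calls on simulated data. edgeR 4.0.16 and DESeq2 1.42.0 on recovered reads, other scalings and filters, removal of length and GC trends (GENCODE 44, lengths for 92.7% of symbols), a replicate block and each library left out were alternatives. Scripts were tested on simulated data. The members, gene lists and tests were chosen with earlier results of these data known. Named list genes were the 2 largest called rises and falls per list and comparison with a mean of at least 50, and the 3 genes most like VGLL1 and CYR61, of which 1 is not reported here. The named genes were otherwise the members, BRDT and TP63.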

Additional observations from a re-analysis of the deposited data

Results flagged for a closer look

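3 results were singled out because an siRNA effect differed between 2 cell lines by a test of the difference itself. With siBRDT the log2 fold change of VGLL4 was higher in KYSE180 than in TE6 by 1.00 (0.18 against -0.82), and that of CYR61 differed by -1.16 (-1.01 against 0.15). With siTP63 the log2 fold change of AMOTL2 was higher in KYSE180 than in KYSE150 by 1.02 (1.30 against 0.28). The VGLL4 call was lost with a replicate block (limma adjusted p = 0.062) and without TE6 siCont replicate 1, siCont replicate 2 or siBRDT replicate 1. The AMOTL2 call was lost with a replicate block (limma adjusted p = 0.18) and without any 1 of 5 of the 8 libraries of the contrast. The CYR61 call was kept in all 19 alternatives run. No group had 4 or more libraries, so none was examined for a library that stands apart.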

How the results depend on the processing

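Of 1040 values of single members under alternative settings, 945 kept their direction and their side of the limits, 21 lost a call, 46 gained one and 28 turned sign, all of the last for values that were not called. The causes of these changes were not tested. The count of members called in KYSE180 siBRDT went from 1 to 2 without the filter and 4 without the size limit. All genes called there went from 4115 of 13589 tested to 4451 of 20913 and 7937 of 13589. With BRDT-OE the count of members went from 2 to 4 without the size limit and under equal totals. All genes called there went from 3386 to 6521 and 3467 of 12765. In KYSE150 siTP63 the count of members called went from 0 to 1 with DESeq2, with length and GC adjustment and with a replicate block. Fits there with a library left out keep 1 library in a group and are not counted here. All genes called there numbered 0 in limma and edgeR, 462 with DESeq2, 766 with length and GC adjustment, 137 with a replicate block and 45 without the filter. For the siBRDT difference it went from 2 to 4 with a variance for each experiment and ranged from 1 to 3 with a library left out. For the siTP63 difference it went from 1 to 3 with length and GC adjustment, 4 with edgeR, 4 with 1 variance, and 0 to 2 with a library left out. Equal totals and a variance for each experiment were chosen after seeing the data, while 1 variance was the first plan for both differences. Over all genes the calls went from 3168 to 4661 of 12612 for the siBRDT difference with a variance for each experiment. For the siTP63 difference they went from 1219 to 2005 of 11891 with length and GC adjustment, 3830 with edgeR and 3865 with 1 variance. Counts of members here include VGLL1. It was 1 of those called for the siTP63 difference with length and GC adjustment, with edgeR and with 1 variance.

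Deviations of libraries with the same replicate number correlated by at most 0.18, and in neither experiment with 3 pairs did every pair exceed 0.1 or every library correlate best with its own number, so the numbers were not taken as a pairing. With the replicate number as a block the members called were 1, 4, 6, 5, 1 and 2 in KYSE180 siBRDT, TE6 siBRDT, KYSE180 siTP63, TE6 siTP63, KYSE150 siTP63 and BRDT-OE, and 1 and 0 for the siBRDT and siTP63 differences. In the same order all genes called were 4175 of 13589, 4442 of 13333, 6799 of 13924, 5177 of 13333, 137 of 12335 and 3433 of 12765. For the differences they were 1779 of 12612 and 68 of 11891. The counts of members include VGLL1 where it was tested, and that of TE6 siTP63 is a description. In KYSE150 siTP63, where deviations of same-numbered libraries correlated by -0.7, the block gave 137 genes and a crossed pairing, chosen after seeing the data, 3400 genes and 3 members.

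The sign of these log2 fold changes, none of them called, turned. With a library left out the ranges were -0.026 to 0.067 for WWTR1 and -0.13 to 0.02 for CTGF in KYSE180 siBRDT, -0.0083 to 0.31 for CYR61 in TE6 siBRDT, -0.099 to 0.19 for VGLL4 in TE6 siTP63, -0.063 to 0.40 for YAP1, -0.39 to 0.17 for TEAD1, -0.47 to 0.076 for TEAD4 and -0.053 to 0.61 for AMOTL2 in KYSE150 siTP63, -0.03 to 0.19 for VGLL4 with BRDT-OE, -0.14 to 0.38 for AMOTL2 in the siBRDT difference and -0.11 to 0.27 for CYR61 in the siTP63 difference. Length and GC adjustment gave 0.031 for YAP1 and 0.044 for WWTR1 in TE6 siBRDT, -0.022 for TEAD1 in KYSE180 siTP63 and 0.073 for WWTR1 in TE6 siTP63. Equal totals gave 0.033 for CTGF in KYSE180 siBRDT, -0.069 for TEAD4 and -0.021 for VGLL4 with BRDT-OE and 0.058 for VGLL4 in the siTP63 difference, and equal upper quartiles gave -0.043 for TEAD4 with BRDT-OE. Depth limited VGLL3 throughout, CTGF in TE6 and VGLL1 in KYSE180 siBRDT, which had too few reads for a test.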
